A study of Mus musculus with 4 samples.

Results

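Expression of the neurotrophins Bdnf and Ntf3 and of their receptors Ntrk2, Ntrk3, Ngfr and Sort1 was compared between the medial prefrontal cortex (mPFC) of mice made depression-like by chronic unpredictable mild stress (CUMS) and that of unstressed control mice. The genes were chosen by symbol, and each of the 6 was found among the 17778 genes of the table. All mice were males of the strain C57BL/6 by the labels and C57BL/6J by the methods. They entered the experiment at about weaning and lived either undisturbed or with social isolation and changing mild stressors for several weeks. From the stressed mice, the study took only those whose sucrose preference, stay near a female in a maze and immobility in forced swimming had all changed, so that the CUMS group stands for susceptible mice and holds no resilient mice. Tissue was taken a day after testing, and both hemispheres were used. Both groups were anesthetized with isoflurane before the tissue was taken. The control group and the CUMS group had 2 libraries each. The table gave 1 mean of RPKM (read number corrected for gene length and library size) per group and gene, with no value for a single library. A difference between groups could therefore not be set against the spread between mice, no test over mice could be run, and the intervals below are 95% counting intervals only.

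Neurotrophins are small secreted proteins that keep neurons alive, guide the growth of their processes and adjust their synapses. Each is made as a proform and cleaved. The mature forms act through Trk receptor tyrosine kinases, of which TrkB (Ntrk2) prefers BDNF and TrkC (Ntrk3) prefers neurotrophin-3. The p75 receptor (Ngfr) binds all neurotrophins and, together with sortilin (Sort1), the proforms, which can drive pruning and cell death. In the adult forebrain TrkB and TrkC are widespread in cortical neurons and glia, whereas p75 marks above all the cholinergic neurons of the basal forebrain and septum.

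The number of fragments behind each value was estimated from the smallest values of the table, because 1 fragment adds a fixed step to RPKM times gene length. This gave 7473842 fragments for a control library and 7485030 for a CUMS library. Compared were the 14257 genes that reached 0.5 RPKM in control or in CUMS (median log2 ratio of CUMS over control -0.02), and a gene was counted as changed when its group means differed more than 1.5-fold, the fold threshold of the study. Excitatory neuron genes of the neocortex were plentiful, which fits the cortical label of the tissue, with Slc17a7, the vesicular glutamate transporter, at 635.39 RPKM in control and 791.26 RPKM in CUMS and Camk2a at 827.76 and 957.92 RPKM.

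Of the 6 genes, only Ngfr passed the fold of 1.5, and it was lower in CUMS. No gene of the set was higher by this fold. Over all genes tested, 4.42% were lower and 2.78% were higher by more than 1.5-fold. Where 1 group reached 5 RPKM or more, which takes in Ngfr, Ntrk2, Ntrk3 and Sort1, the shares were 1.28% and 0.319%. The counting interval of the log2 ratio lay under 0 for Ngfr and Ntrk2 and above 0 for Sort1, and held 0 for Bdnf, Ntf3 and Ntrk3. Such intervals lay under 0 in 16.9% and above 0 in 12.6% of all genes, so that a small ratio outside its counting interval was common in these libraries.

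**Figure D1:**
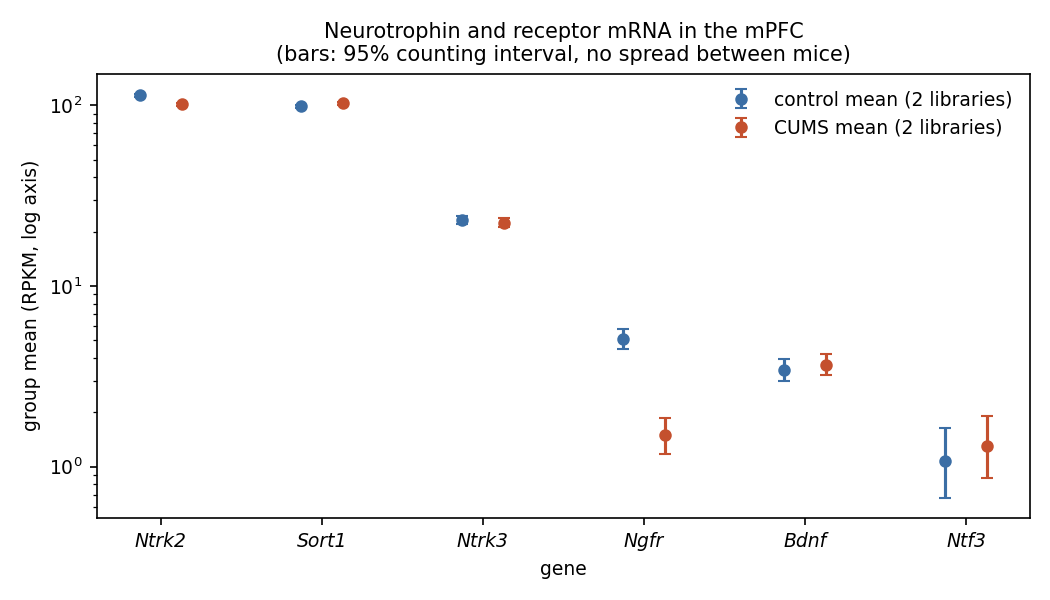
Mean RPKM of each gene in control (blue, 2 libraries) and CUMS (red, 2 libraries) on a log axis, with bars for the 95% counting interval, which holds no spread between mice. Ngfr is the gene whose bars lie far apart, at 5.10 and 1.495 RPKM, and for Ntrk3, Bdnf and Ntf3 the bars overlap.

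The promoters of the gene that changed and of the best-known activity-driven gene of the set are given here, because annotated transcripts of Ngfr and Bdnf start in them. They come from RefSeq on GRCm38.p6 and run from 250 bases before to 50 bases after the start site. Bdnf is known to be transcribed from several separate promoters, and 7 were listed. Ntf3 had 2, and Ngfr and Ntrk2 had 1 each. Motifs were searched on both strands: the half-site of the cAMP response element (CRE), TGACG, the full CRE, TGACGTCA, which contains that half-site, and the GC box, GGGCGG. Matches are in capitals. The Ngfr promoter (chr11:95587649-95587948, minus strand) held 4 GC boxes, at positions -114, -72, -63 and -16 from the start site, and no CRE half-site, and its GC content was 71.7% against a median of 52.7% over 32851 promoters. Of the 7 Bdnf promoters, 1 held a CRE half-site (chr2:109692186-109692485, plus strand, at position -35 on the opposite strand), 2 held a GC box and 0 held the full CRE. Among all promoters of the same length, 20.8% held the half-site, 1.79% the full CRE and 35.7% the GC box. These matches describe letters and were not tested as binding sites.
Ngfr promoter: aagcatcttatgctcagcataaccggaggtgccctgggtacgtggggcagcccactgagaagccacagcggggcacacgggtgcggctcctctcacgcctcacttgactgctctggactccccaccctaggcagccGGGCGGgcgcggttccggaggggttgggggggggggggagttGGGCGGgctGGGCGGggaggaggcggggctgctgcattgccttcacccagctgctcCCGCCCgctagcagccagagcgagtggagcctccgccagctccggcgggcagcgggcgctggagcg
Bdnf promoter: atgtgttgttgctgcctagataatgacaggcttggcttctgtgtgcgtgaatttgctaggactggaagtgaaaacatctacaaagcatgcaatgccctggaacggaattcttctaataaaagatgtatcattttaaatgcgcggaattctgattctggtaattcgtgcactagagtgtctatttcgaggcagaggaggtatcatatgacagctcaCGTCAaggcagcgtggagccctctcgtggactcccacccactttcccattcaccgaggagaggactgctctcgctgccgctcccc

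Ngfr (gene 18053, chr11:95568818-95587698 on GRCm38, minus strand) encodes p75, the receptor shared by all neurotrophins. Its mean in control was 5.10 RPKM (counting interval 4.50 to 5.76, about 260 fragments over both libraries), and its mean in CUMS was 1.495 RPKM (1.17 to 1.86, about 76 fragments). The CUMS mean was 3.41-fold lower, a log2 ratio of -1.77 (-2.16 to -1.40). Of the 14257 genes, 69 had a lower log2 ratio. Among the 4339 genes whose control mean lay within 2-fold of that of Ngfr, 150 (3.46%) were lower by more than 1.5-fold and 12 had a lower log2 ratio than Ngfr. In GENCODE M21 no other gene overlaps Ngfr, and a single coding transcript is listed for it, of 3446 bases. In tissue of mixed cells, fewer cells that express Ngfr and less Ngfr RNA per cell cannot be told apart.

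**Figure D2:**
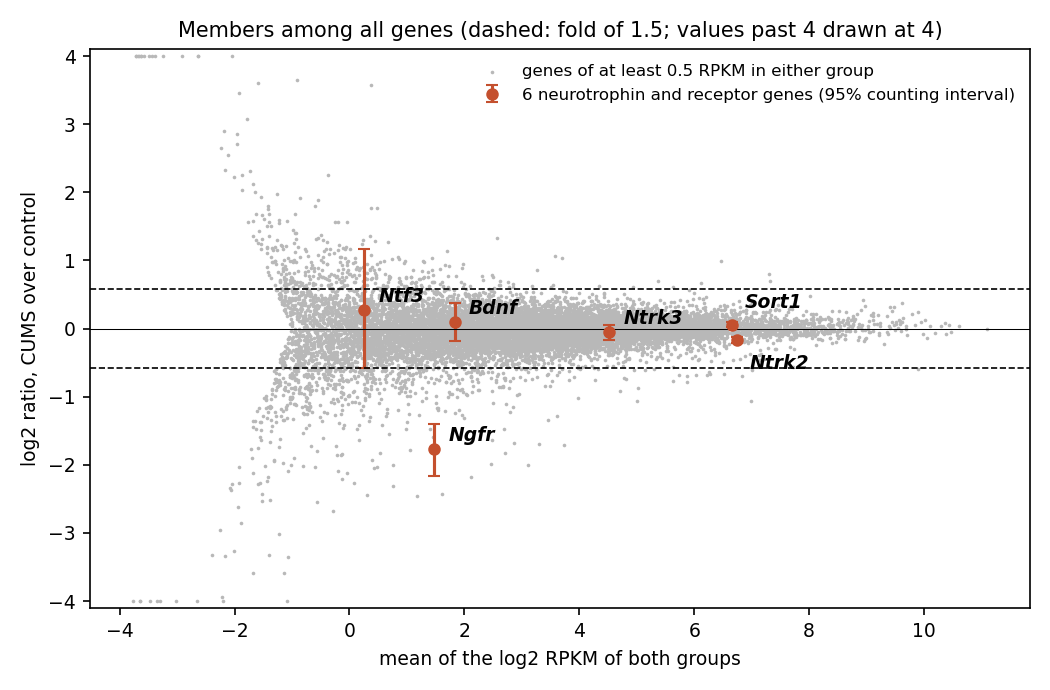
Log2 ratio of CUMS over control against the mean log2 RPKM of both groups for 14257 genes (grey), with the 6 genes in red and their 95% counting intervals. Ngfr lies at -1.77, below most genes of its level, while the other 5 lie between -0.17 and 0.27, inside the dashed lines of the 1.5-fold threshold. Ratios past 4, many of them against a value listed at 0.01 in place of 0, are drawn at 4.

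Ntrk2 (gene 18212, chr13:58806472-59133970, plus strand), the TrkB receptor of BDNF, had 113.78 RPKM in control (111.6 to 116.0) and 101.225 RPKM in CUMS (99.2 to 103.3). This is a log2 ratio of -0.17 (-0.21 to -0.13), or 1.12-fold lower, from 10257 and 9139 fragments. Among the 1152 genes with a control mean within 2-fold, 97 had a lower log2 ratio. The gene makes a full receptor and short receptors without the kinase. GENCODE M21 lists 7 coding transcripts of Ntrk2, with 2 that encode 821 residues and 5 that encode 466 to 492 residues. The table has a single value for all of them, and which form was lower cannot be read from it.

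Ntrk3 (gene 18213, chr7:78179986-78581034, minus strand), the TrkC receptor of neurotrophin-3, had 23.285 RPKM in control (22.1 to 24.6) and 22.405 RPKM in CUMS (21.2 to 23.7). The log2 ratio was -0.06 (-0.17 to 0.06), and the groups could not be told apart at this depth. Ntrk3 also makes forms without a kinase, and its coding transcripts encode 864 residues at most and include a form of 612 residues.

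Sort1 (gene 20661, chr3:108283974-108361519, plus strand) encodes sortilin, which sorts proteins inside the cell and joins p75 at the surface to bind proforms. It had 98.95 RPKM in control (97.0 to 100.9) and 102.985 RPKM in CUMS (101.0 to 105.0). The log2 ratio was 0.06 (0.02 to 0.10), or 1.04-fold higher. Of 1323 genes with a control mean within 2-fold, 460 had a higher log2 ratio, so that a ratio of this size was ordinary for genes of this level.

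Bdnf (gene 12064, chr2:109674700-109727043, plus strand) encodes the ligand of TrkB that is most often studied in stress and depression. It had 3.44 RPKM in control (2.99 to 3.94, about 210 fragments) and 3.665 RPKM in CUMS (3.20 to 4.18, about 224 fragments). The log2 ratio was 0.09 (-0.19 to 0.37), and no difference was detectable. The upper and lower bounds leave room for a change of 0.37 upward or 0.19 downward on the log2 scale from counting error alone. GENCODE M21 lists 11 coding transcripts of Bdnf, of 3707 to 4266 bases, that share the coding exon and start at different promoters. The table does not separate them.

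Ntf3 (gene 18205, chr6:126101412-126166772, minus strand) encodes neurotrophin-3, the ligand of TrkC. It was the least abundant of the 6, with 1.08 RPKM in control (0.67 to 1.63) and 1.30 RPKM in CUMS (0.87 to 1.92). These means rest on about 22 and 27 fragments. The log2 ratio of 0.27 had a counting interval of -0.57 to 1.17, which takes in 0 as well as increases past the fold of 1.5.

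In control the order of the levels per length was Ntrk2, Sort1, Ntrk3, Ngfr, Bdnf and Ntf3, and no 2 neighbours had overlapping counting intervals. In CUMS the order was Sort1, Ntrk2, Ntrk3, Bdnf, Ngfr and Ntf3. There the intervals of Sort1 and Ntrk2 overlapped, as did those of Ngfr and Ntf3, while Bdnf stood clear of Ngfr. Ngfr thus had a higher level than Bdnf in control and a lower level in CUMS. The Trk receptors outweighed their ligands Bdnf and Ntf3 in both groups, whereas Ngfr did not outweigh Bdnf in CUMS. The level of Ntrk2 was 33.1 times that of Bdnf in control and 27.6 times in CUMS, and the level of Ntrk3 was 21.6 and 17.2 times that of Ntf3. Relative to p75 the Trk receptors and sortilin gained weight. The ratio of Ntrk2 to Ngfr levels was 22.3 in control and 67.7 in CUMS, that of Ntrk3 to Ngfr was 4.57 and 15.0, and that of Sort1 to Ngfr was 19.4 and 68.9. RPKM levels depend on the gene length used. Per longest annotated transcript, Sort1 (99.3 RPKM) stood above Ntrk2 (78.5 RPKM) in control already, so that the lead of Ntrk2 there rests on the length. For Ntrk3 the table used 3829.88 bases, whereas the longest annotated transcript has 19703 bases, and per that length Ntrk3 had 4.53 RPKM in control and fell behind Ngfr (5.05 RPKM by its own longest transcript).

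The strand setting of the read counting was not stated. GENCODE M21 has an antisense gene over Bdnf (Gm45346), and over Ntrk2, Ntrk3 and Sort1 it has both antisense genes and other noncoding entries, none of which has a row of its own in the table. Reads of such genes could be part of these 4 values. No such gene overlaps Ngfr or Ntf3.

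Ntf5, which encodes neurotrophin-4, a further ligand of TrkB, rested on about 3 fragments in control and 1 in CUMS, which allows no ratio.

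Sortilin relatives and receptor partners stayed within the fold. Of 8 genes tested, 0 passed it in either direction. The median log2 ratio was -0.03, and the ratios ran from -0.50 to 0.42. Sorl1 had 23.785 RPKM in control and 22.74 RPKM in CUMS, Sorcs1 had 5.645 and 5.975 RPKM, Sorcs2 had 21.5 and 19.225 RPKM, and Sorcs3 had 11.15 and 9.94 RPKM. Kidins220, a scaffold under Trk receptors, had 39.845 and 39.93 RPKM. Among the partners of p75, Lingo1 had 108.95 RPKM in control and 132.19 RPKM in CUMS, a log2 ratio of 0.28 (0.23 to 0.33), and Rtn4r, the Nogo receptor that pairs with p75 to halt axon growth, had 46.28 and 62.11 RPKM, a log2 ratio of 0.42 (0.32 to 0.53). Nradd, a p75-like protein, had 1.475 and 1.04 RPKM with a log2 ratio of -0.50 (-1.44 to 0.39). Ngfr itself was lower past the fold, while Lingo1 and Rtn4r stayed within the fold. Their counting intervals lay above 0, as did those of 12.6% of all genes. The intervals of Sorcs2 (-0.26 to -0.06) and Sorcs3 (-0.30 to -0.03) lay under 0, as did those of 16.9% of all genes.

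The cascades under the receptors showed little movement in mRNA. Among proteases and inhibitors that handle the proforms, 1 of 10 genes was higher and 0 were lower by the fold, with a median log2 ratio of 0.05. Cpe, a sorting receptor and carboxypeptidase, had 1079.64 and 1109.74 RPKM, and Pcsk2, a proform convertase, had 99.58 and 124.41 RPKM. Of 45 Trk adaptors and effectors, 1 was higher and 0 were lower, with a median of -0.002. It was Rps6ka3, a kinase of the MAP kinase branch, at 1.795 RPKM in control and 2.97 RPKM in CUMS. Map2k1, a MAP kinase kinase, had the highest control mean of the list (162.77 and 169.66 RPKM). Of 19 p75 adaptors and effectors, 0 passed the fold in either direction and the median was 0.0003. Maged1 had 299.645 and 269.575 RPKM and Ngfrap1, also known as Bex3, had 160.285 and 160.315 RPKM.

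Genes that control Bdnf transcription likewise stayed within the fold, apart from 1 of 15 (median -0.02). That gene was Npas4, an activity-driven transcription factor that binds Bdnf promoters, at 25.01 RPKM in control and 14.85 RPKM in CUMS, a log2 ratio of -0.75 (-0.89 to -0.62). The regulators with the highest control means were Mef2d (63.71 and 62.7 RPKM) and Crtc1, a CREB coactivator (61.365 and 60.715 RPKM).

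Genes that neurons switch on upon activity or neurotrophin signaling were lower as a group. Of 22, 9 were lower by more than 1.5-fold (40.9%, beside 4.42% of all genes), 0 were higher, and all 22 had a lower mean in CUMS, with a median log2 ratio of -0.46. Arc, a synaptic protein, had 184.07 RPKM in control and 88.045 RPKM in CUMS. Fos had 46.385 and 22.255 RPKM, Dusp1, a phosphatase that ends MAP kinase signals, had 35.145 and 21.275 RPKM, and Egr1 had 174.23 and 128.195 RPKM. The list contains Npas4 as well. It was chosen with earlier results of these data known, and the study itself reported Arc, Fos, Dusp1 and Npas4 as lowered. Bdnf is itself an activity-driven gene, yet its log2 ratio of 0.09 was higher than that of each of the 22 genes, which ranged from -1.06 to -0.17. The counting interval of Bdnf reached down to -0.19 and so met only the upper end of this range of ratios. The 22 ratios have counting intervals of their own, which lay under 0 in 19 genes. In the others the interval held 0, as did that of Bdnf, so that Bdnf was not set apart from every gene of the list.

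**Figure D3:**
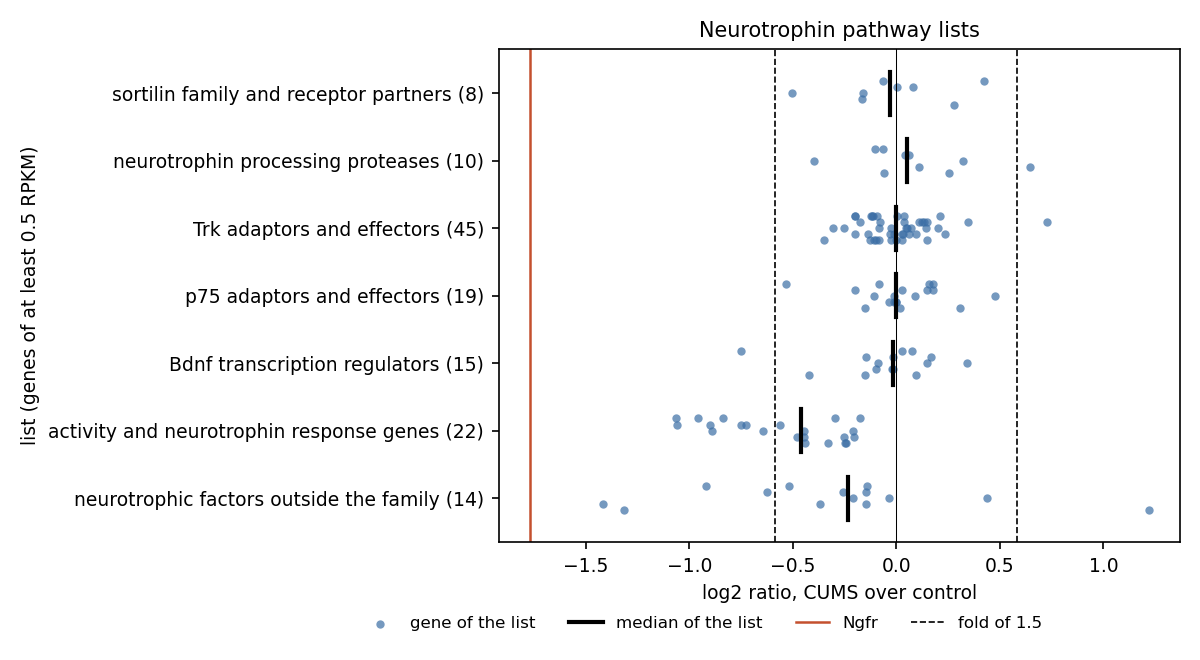
Log2 ratio of CUMS over control for each gene (blue points) of 7 pathway lists, with the median of each list (black bar), the value of Ngfr (red line) and the 1.5-fold threshold (dashed). The adaptor and effector lists center near 0, and all 22 activity and response genes lie under 0 with a median of -0.46, and no gene of these lists reaches the ratio of Ngfr.

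Ngfr is a defining gene of basal forebrain cholinergic neurons, whose cell bodies lie under and beside the mPFC, so that markers of these cells were read beside it. All 11 markers of the list were lower by more than 1.5-fold (4.42% of all genes), and the counting interval lay under 0 in 9 of them. The median log2 ratio was -1.54. Summed over the list, the level in control was 38.535 RPKM and in CUMS it was 12.87 RPKM. Chat, which makes acetylcholine, had 2.75 RPKM in control and 0.945 RPKM in CUMS, and Slc18a3, which loads it into vesicles, had 2.73 and 0.77 RPKM. The transcription factor Lhx8 had 3.40 and 0.845 RPKM, Isl1 had 2.705 and 1.185 RPKM, and Gbx1 had 1.565 and 0.13 RPKM. The most abundant was Ecel1 (17.63 and 5.44 RPKM), which weighs most in the summed levels and was itself reported as lowered by the study. The list was chosen with earlier results of these data known, so that the count of lower markers is no independent support. None of the 11 was listed at 0 in either group. The level of Ngfr amounted to 13.2% of the summed level of these markers in control and to 11.6% in CUMS, so that Ngfr and the markers were lower by a similar factor. For Ntrk2 the same quotient was 295% and 787%. The part of a different share of such cells, or of tissue from outside the mPFC, in the value of Ngfr was not tested.

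**Figure D4:**
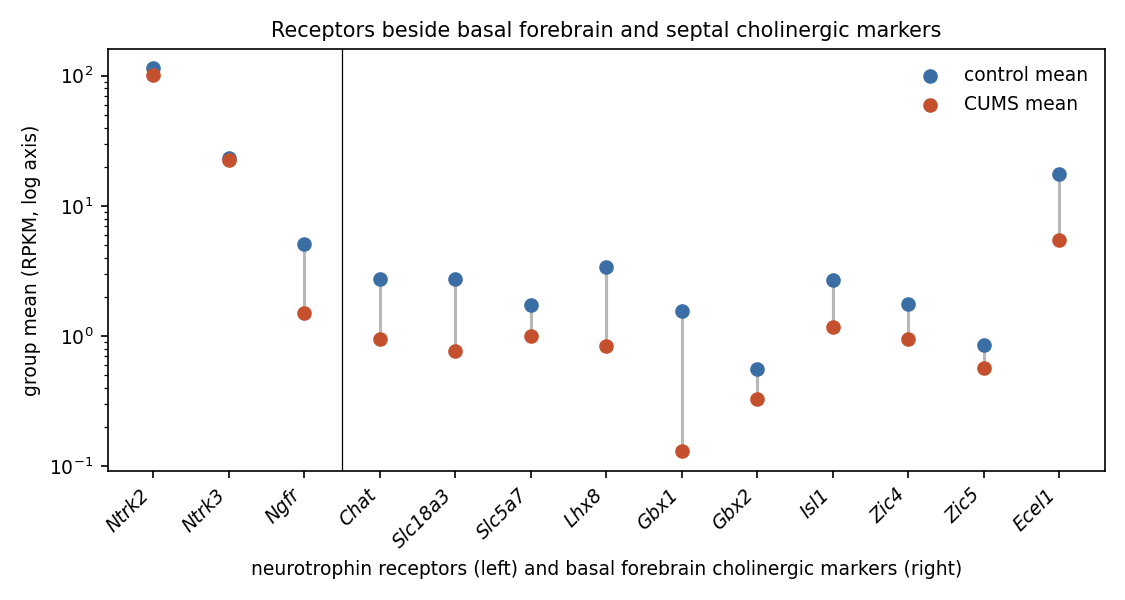
Mean RPKM in control (blue) and CUMS (red) on a log axis for Ntrk2, Ntrk3 and Ngfr and for 10 of the 11 markers of basal forebrain and septal cholinergic neurons. The markers shown and Ngfr lie lower in CUMS by more than 1.5-fold, while Ntrk2 and Ntrk3 have nearly the same level in both groups.

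Marker lists of septum and hypothalamus and of the olfactory bulb moved in the same direction. All 13 tested genes of septum and hypothalamus were past the fold and lower (median -1.48, summed level 122.22 RPKM in control and 42.75 RPKM in CUMS), as were 11 of 12 olfactory bulb genes (median -1.18, summed level 107.31 and 53.6 RPKM). The olfactory genes S100a5 and Omp were listed at 0.01 in CUMS, which stands in for 0. Both lists were chosen with earlier results of these data known. The study itself reported Zic1, Baiap3, Magel2, Peg10, Dlk1, Nts and Prkcd, and Doc2g, Th and Calb2, as lowered. The counts of both lists are therefore no independent support for a change of a region. Striatal projection neuron genes did not pass the fold in any of 10 (median -0.27, summed level 566.6 and 471.67 RPKM). Of these 10, 9 had a lower mean in CUMS, and the counting interval lay under 0 in 8. Neocortical excitatory neuron genes were higher by the fold in 1 of 12 and lower in 0, with 10 of 12 above 0 and a median of 0.31 (summed level 1625.3 and 1949.29 RPKM).

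Other cells, some of them known to make p75 or TrkB, were read as well. Of 8 genes of olfactory ensheathing glia, 0 passed the fold (median 0.20), and their markers Prss56 (0.415 and 0.5 RPKM) and Mybpc1 (0.395 and 0.435 RPKM) were near absent. Of 5 tested Schwann cell genes, 2 were lower by the fold. These were Egr2, which also belongs to the activity genes, and Ncmap, which had 0.575 RPKM in control and 0.325 RPKM in CUMS. Sox10 had 23.18 and 15.56 RPKM and is shared with oligodendrocytes. Fibroblast genes of meninges and vessels were higher in 4 and lower in 1 of 12 (median 0.08), and pericyte and endothelial genes were lower in 1 of 9 (median -0.09). Astrocytes carry the short form of TrkB. Of 10 astrocyte genes, 1 was lower by the fold (median -0.08, summed level 1050.66 RPKM in control and 974.805 RPKM in CUMS), beside the log2 ratio of -0.17 of Ntrk2. Oligodendrocyte genes were lower in 4 of 10 (median -0.51) and their precursors in 0 of 6 (median -0.27). Cortical interneuron genes were lower in 2 of 10 (median -0.02) and microglia genes in 0 of 8 (median 0.15). Blood genes were higher in 7 of 7 (median 1.00). The part of these cells in the values of the 6 genes was not tested.

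**Figure D5:**
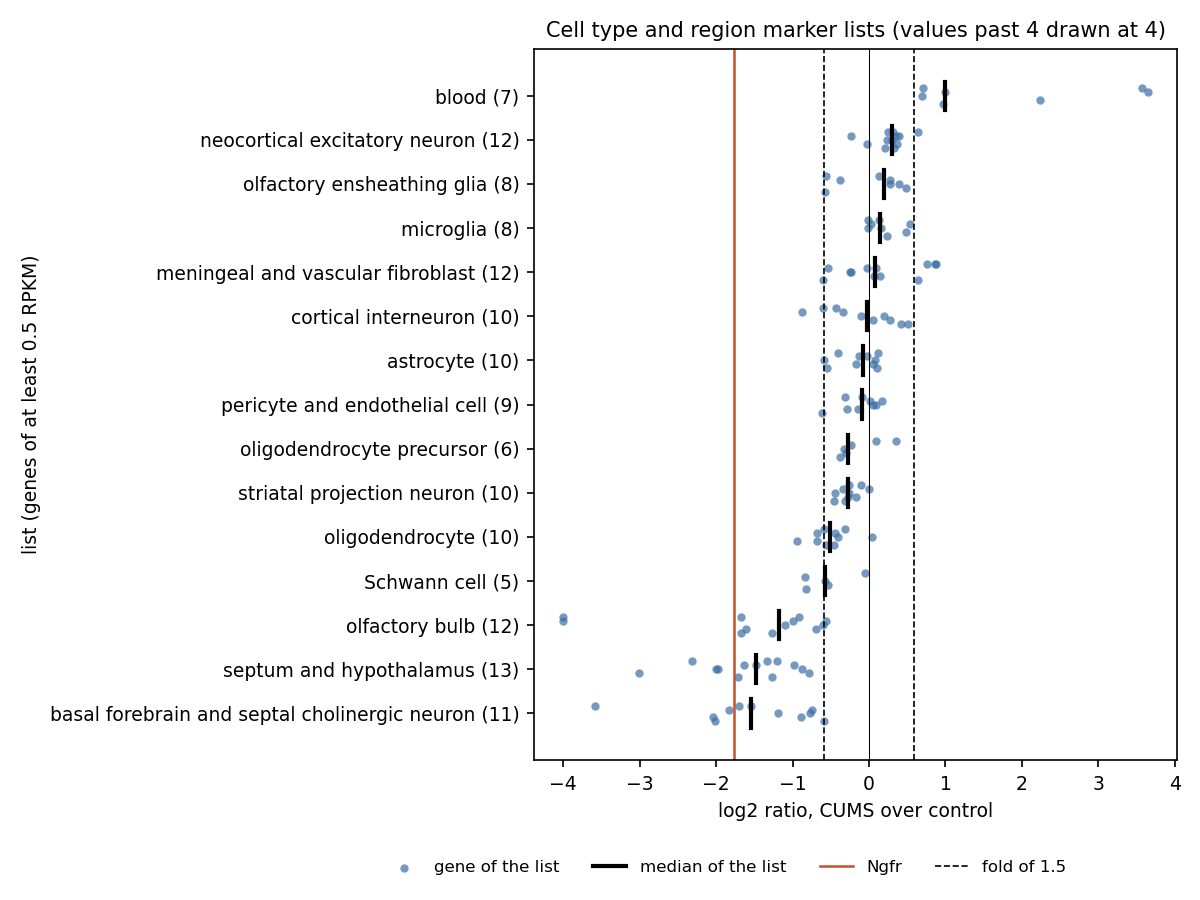
Log2 ratio of CUMS over control for each gene (blue points) of 15 marker lists ordered by their median (black bars), with Ngfr (red line) and the 1.5-fold threshold (dashed). The lists of basal forebrain, of septum and hypothalamus, and of olfactory bulb have the lowest medians, from -1.54 to -1.18. They come nearest to Ngfr at -1.77. S100a5 and Omp, listed at 0.01 in CUMS, are drawn at -4.

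By the measure of the log2 ratio alone, Slc18a3 and Th were among the genes most like Ngfr of those with a control mean within 2-fold. Slc18a3 had a log2 ratio of -1.83 (-2.48 to -1.21). Th, the enzyme of dopamine synthesis, had 7.78 RPKM in control and 2.44 RPKM in CUMS, a log2 ratio of -1.67 (-2.10 to -1.26). They lay within 0.06 and 0.10 of the log2 ratio of Ngfr, a likeness that rests on 2 group means per gene.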

How the data were processed

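mRNA of the mPFC was sequenced from 2 control and 2 CUMS libraries of C57BL/6 mice (C57BL/6J in the methods). According to the methods of the study, oligo(dT)-selected RNA was read in pairs on an Illumina HiSeq instrument, and reads were trimmed with SolexaQA and aligned to mm10 by TopHat 1.0.12 with Bowtie 0.11.3. Counting used reads with a unique alignment. The annotation used for it is not given in the sources used here. The deposited values were RPKM, which the authors had averaged over the libraries of each group, with 0.01 in place of 0. The deposited gene length, in bases, was an other kind of value and was used for fragment numbers. The authors' own log2 ratio, direction and NOISeq probability were deposited too and were not used.

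The step of RPKM times length that 1 fragment adds was taken from genes under 1000 bases. In control 87.9% of 406 low values and in CUMS 87.5% of 392 low values came to a whole number of steps with a tolerance of 0.15. The estimate assumes libraries of equal depth within a group. It is lower than the read numbers of the study imply, for a reason that was not resolved. Ratio intervals are exact Clopper-Pearson and level intervals exact Poisson (95%). They cover counting error only, since each gene had 1 mean per group. Duplicates could not be removed, so that the intervals can be too narrow even for counting error. A floor of 3 fragments was set, and no ratio was given with both groups at or under it. Scripts ran in Python 3.11.15 with scipy 1.17.1 and were tested on simulated data. Members were matched to RefSeq (GRCm38.p6) by gene identifier for 6 of 6.

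Named were the 6 genes, further family genes, every sortilin relative and receptor partner, in each other pathway list the genes past the fold (at most 4) and the pair with the highest control means, genes nearest to Ngfr (of 3), and abundant or near-absent markers. Some genes that this rule names are not reported here. Chat, Slc5a7, Isl1, Gbx1, Zic5, Egr2 and Ncmap were named after their values were seen. Members, the 8 pathway lists and the 15 marker lists were chosen with earlier results of these data known. A test over libraries, planned in case the table held them singly, was not run.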

Additional observations from a re-analysis of the deposited data

How the results depend on the processing

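No paired analysis was possible because each gene has a mean per group and no value per library, and for the same reason no fit that leaves out a replicate could be run. The log2 ratios of the 6 genes were recomputed under 2 rescalings of CUMS and with 0.5 or 1 added to each RPKM. Of these 24 values, 23 stayed inside the counting interval of the gene. The exception was Ngfr, whose log2 ratio of -1.77 became -1.29 with 1 added, since an added constant shrinks the ratio of a low gene. The rescalings shifted every log2 ratio by 0.015 and -0.008. The count of 1 gene past the fold was 1 under both rescalings, both added constants, a smaller fold and a fold of 2. With fragment numbers at 2 or 0.5 times the estimate, no counting interval of the 6 genes moved to the other side of 0 (12 of 12 alike). The share of all genes past the fold of 1.5, 7.20% at 0.5 RPKM in either group, was 1.60% at 5 RPKM in either group, 4.65% at 0.5 RPKM in both groups and 19.1% with no filter, so that it rests on the filter. Of 46 counts of list genes past the fold, 33 were equal and 13 were lower at 5 RPKM, where fewer genes were tested, and 11 of these 13 were lower by more than 1.5 times. For cholinergic markers 1 gene was left, Ecel1, and it was past the fold. The depth limits Ntf3 most.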

Other observations

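Neurotrophic factors outside the neurotrophin family were read as a further list. Of 14 genes tested, 4 were lower and 1 was higher by more than 1.5-fold (4.42% and 2.78% of all genes), with a median log2 ratio of -0.23. The genes that were lower were Gfra1 and Ret, receptors of the GDNF family, Nrtn, a ligand of that family, and Cntf. Gfra1 had 17.565 RPKM in control and 11.41 RPKM in CUMS, a log2 ratio of -0.62 (-0.78 to -0.47). Ret had 2.415 and 0.905 RPKM, a log2 ratio of -1.42 (-1.77 to -1.08). Nrtn (1.645 and 0.87 RPKM) and Cntf (0.585 and 0.235 RPKM) rested on 25 fragments or fewer per group, and their counting intervals held 0. The gene that was higher was Cdnf, at 0.305 and 0.71 RPKM. The most abundant genes of the list were Ptn, with 60.875 RPKM in control and 82.51 RPKM in CUMS, and Cntfr, with 48.845 and 44.215 RPKM.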
